A study of Mus musculus with 30 samples.

Results

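The 10 genes described here, which the FGF-ERK pathway switches on or which act on it, were followed through 30 RNA-seq libraries of mouse embryonic stem cells. The 10 genes are the ligand Fgf4, the feedback inhibitors Spry2, Spry4, Spred1, Dusp4 and Dusp6, the ETS factors Etv4 and Etv5, and the immediate early genes Egr1 and Fos. They were the 10 rows, of 55421 genes in the count table, whose identifiers map to those symbols, and all 10 passed the filter on low counts. The set was drawn up with earlier results of these data known. Spry4 was chosen by its lower level in treated libraries, so its change with treatment is described here without a test. The untreated libraries also entered that choice, so p-values of Spry4 between untreated groups are to be read as description.

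The cells were E14 (E14Tg2a), an XY line of 129P2/Ola background, in 5 engineered versions that all carry Tir1, the plant F-box protein that marks a tagged protein for destruction once auxin is added. The line named TIR1 has no degron and is the control for auxin itself. In PDS5AB the auxin-inducible degron (AID) sits on PDS5A and PDS5B, and in WAPL it sits on WAPL. PDS5A, PDS5B and WAPL are cohesin regulators that limit how long the DNA-looping cohesin ring stays on chromosomes. PDS5AB-NIPBL and WAPL-NIPBL have the same AID tags, an FKBP12 F36V degron on NIPBL, the cohesin loader, and a Halo tag on the cohesin subunit RAD21. Treated cells of TIR1, PDS5AB and WAPL received 500 µM auxin for 24 h, and those of the 2 NIPBL lines received 500 µM auxin with 500 nM dTAG-13 for 24 h. Untreated cells received neither. Each line is represented by 1 named cell line, with 3 untreated and 3 treated libraries. Cells of all 10 groups grew in medium with serum, leukaemia inhibitory factor, CHIR-99021 and PD0325901, and the last of these inhibits MEK, the kinase that activates ERK. Every level below is therefore a level under a MEK inhibitor. Degrons act on protein, so transcript counts do not check the depletion.

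FGF4 made by embryonic stem cells binds FGF receptors and, through RAS, RAF and MEK, activates the kinase ERK. ERK signalling primes embryonic stem cells to leave the naive state and drives inner cell mass cells towards primitive endoderm. Active ERK switches on genes that act in turn on the pathway: Sprouty (Spry) and Spred proteins restrain RAS-RAF signalling, DUSP6 and DUSP4 remove phosphates from ERK, and ETV4 and ETV5 are ETS factors that carry the response to target genes. FOS and EGR1 are transcription factors made within minutes of a stimulus, and other pathways also induce them.

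Promoter windows are shown for Dusp6, which fell with treatment in all 5 lines, for Fos, which rose in 4, and for Spry2, whose direction differed between lines. In these 3 genes the RefSeq start is also the start in the count table. Windows from the RefSeq promoter table (GRCm38.p6) were matched here for 6 of the 10 genes. The promoters of the others were not searched, which does not mean that the table lacks them. Each sequence below is the 250 bases before the start, 5′ to 3′ on the gene's own strand, and capitals mark the letters CGGAAG (an ETS-type motif) on either strand. The windows are chr10:99262981-99263230 (plus strand) for Dusp6, chr12:85473640-85473889 (plus strand) for Fos and chr14:105896820-105897069 (minus strand) for Spry2.
Dusp6: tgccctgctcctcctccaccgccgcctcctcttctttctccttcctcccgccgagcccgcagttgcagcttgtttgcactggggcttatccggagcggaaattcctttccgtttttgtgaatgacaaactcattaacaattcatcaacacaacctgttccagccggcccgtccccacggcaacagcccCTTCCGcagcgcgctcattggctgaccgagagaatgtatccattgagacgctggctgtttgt
Fos: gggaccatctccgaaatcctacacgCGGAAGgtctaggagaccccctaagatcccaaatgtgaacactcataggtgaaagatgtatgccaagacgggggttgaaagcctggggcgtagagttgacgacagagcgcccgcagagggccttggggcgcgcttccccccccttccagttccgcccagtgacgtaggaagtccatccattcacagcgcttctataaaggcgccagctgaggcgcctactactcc
Spry2: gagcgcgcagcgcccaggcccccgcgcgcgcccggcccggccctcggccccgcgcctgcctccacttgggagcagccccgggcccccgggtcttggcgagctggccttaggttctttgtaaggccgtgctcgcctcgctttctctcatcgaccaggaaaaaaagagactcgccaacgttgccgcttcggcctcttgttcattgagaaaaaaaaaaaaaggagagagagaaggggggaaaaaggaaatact
The CGGAAG letters stood 62 to 57 bases before the start in Dusp6, where they lie on the opposite strand, and 225 to 220 bases before it in Fos. Spred1 also held them, 17 to 12 bases before its RefSeq start, while the windows of Spry2, Fgf4 and Etv5 did not. Of all 32851 promoter windows of this length in the table, 13.6% held CGGAAG. None of the windows of the 6 matched genes held TGANTCA (the AP-1 motif, in 6.75% of all windows), TGACGTCA (the CRE, in 1.55%), GCGGGGGCG (the EGR motif, in 2.57%) or the CArG box (in 1.47%). Only these patterns within 250 bases were searched, so variants of them and sites further upstream would be missed. These matches describe letters only and were not tested as sites.

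Library totals ran from 19632704 to 45539021 counts, log2 levels within a group correlated at 0.987 or more across genes, and no pair of libraries was identical. Nothing in the labels says that the 3 libraries of a group came from separate cultures, so p-values measure only the spread between these libraries. The libraries are numbered 1 to 21 (PDS5AB, both groups, and untreated TIR1), 25 to 42 (the WAPL, PDS5AB-NIPBL and WAPL-NIPBL groups) and 43 to 45 (treated TIR1). The effect of auxin in TIR1 therefore crosses the library numbering, and for it a difference between numbered sets and the treatment cannot be told apart. All 10 pluripotency markers were at a median of 1 CPM (counts per 1000000 counts) or more, with summed levels of 4836 to 8244 CPM. The 6 primitive endoderm markers, of which 3 reached a median of 1 CPM, summed to 5.46 to 71.8 CPM. Summed levels ran from 18.2 to 36.2 CPM for 6 streak and mesoderm markers, from 2.47 to 9.37 CPM for 6 neural markers, from 28.6 to 133 CPM for 6 trophoblast markers and from 4.35 to 21.8 CPM for 6 fibroblast feeder markers. No marker was at 0 in all libraries.

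Per kilobase of transcript, the 10 genes spanned a wide range of levels in untreated TIR1 cells. Etv5 was highest at 97.9 ± 4.15 CPM per kb (SD, n = 3), followed by Fgf4 at 84.5 ± 2.73, Spry2 at 35.3 ± 1.87 and Etv4 at 20.9 ± 2.65 CPM per kb. Spred1 stood at 5.39 ± 0.193, Dusp6 at 3.43 ± 0.320, Spry4 at 1.90 ± 0.259 and Fos at 1.15 ± 0.387 CPM per kb. Dusp4 at 0.240 ± 0.0400 and Egr1 at 0.0749 ± 0.0336 CPM per kb were lowest. The ligand and 1 ETS factor were thus among the abundant transcripts of the set, and the phosphatases and immediate early genes among the scarce ones. Across the 10 groups the mean level varied least for Etv5, with a ratio of 1.20 between the highest and lowest group, and most for Spry4, with a ratio of 55.

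**Figure D1:**
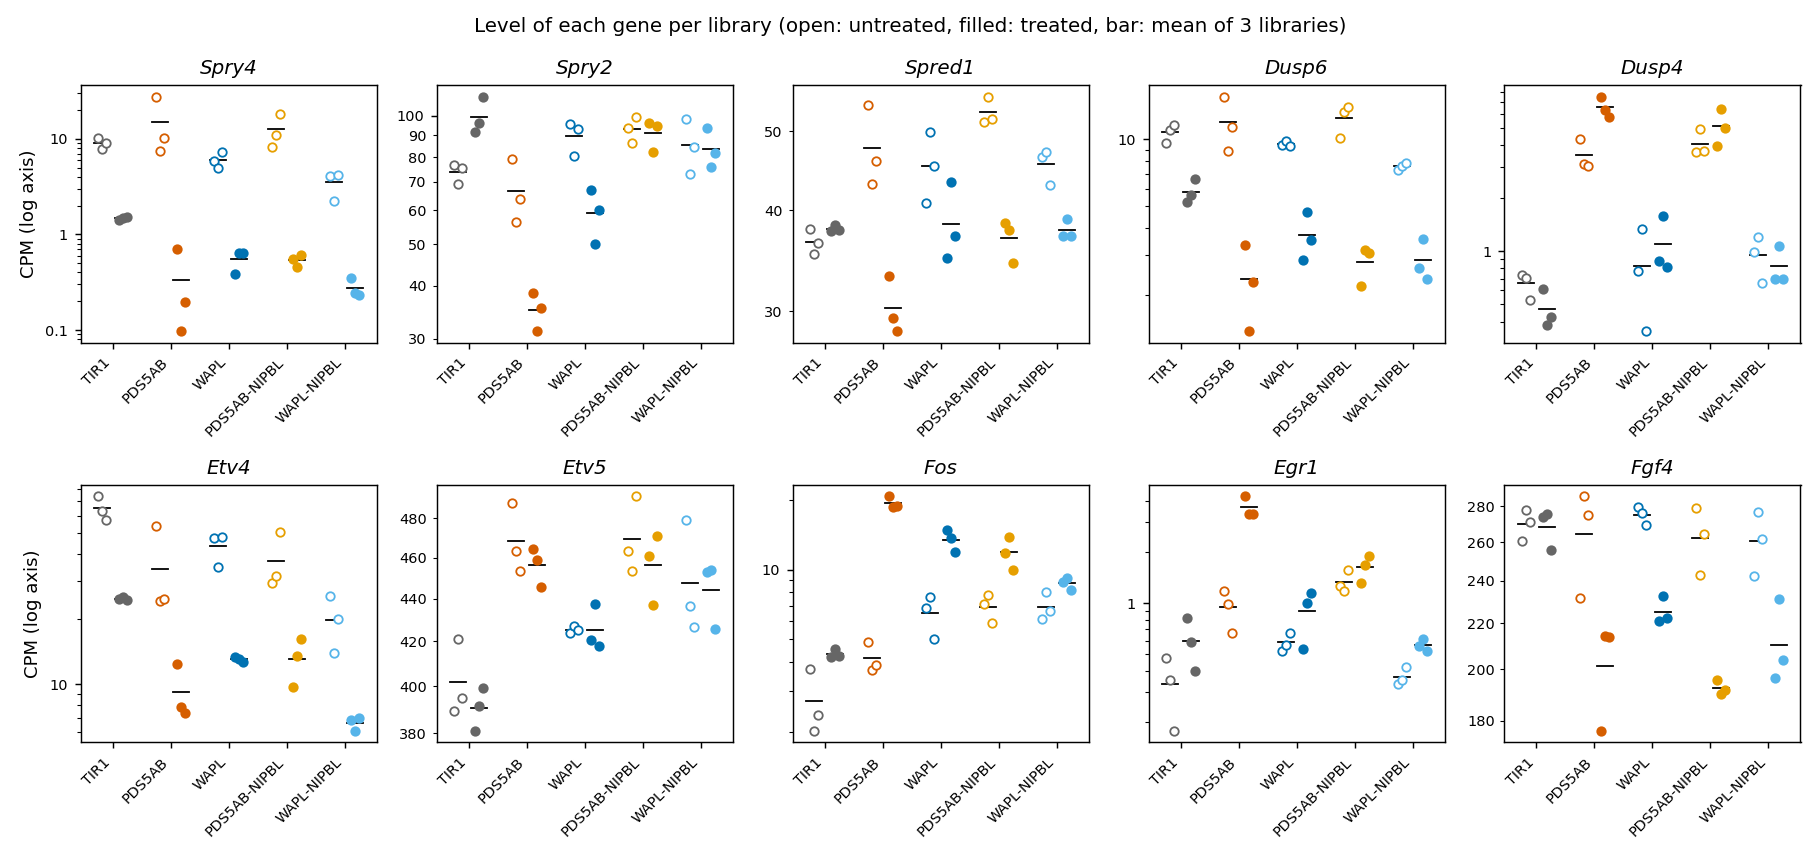
Level of each gene in all 30 libraries, in CPM on a log axis, by line; open circles are untreated libraries, filled circles treated ones, and bars the mean of 3. Treated libraries of Spry4, Dusp6 and Etv4 lie below the untreated ones of their line in all 5 lines, while those of Etv5 overlap them throughout.

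Spry4 encodes a Sprouty inhibitor of receptor tyrosine kinase signalling. Its gene lies on chromosome 18 (38586247 to 38601415, minus strand, GRCm38). In untreated TIR1 cells the libraries held 10.3, 7.79 and 9.08 CPM, and after auxin alone 1.43, 1.49 and 1.51 CPM. PDS5AB libraries held 27.6, 7.5 and 10.2 CPM untreated and 0.709, 0.0980 and 0.196 CPM treated, the treated values resting on 19, 3 and 6 counts. Replicate 1 was thus far above the other two in both PDS5AB groups.

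WAPL libraries held 5.90, 4.94 and 7.36 CPM of Spry4 untreated and 0.383, 0.645 and 0.635 CPM treated. In PDS5AB-NIPBL the values were 8.21, 11 and 18.3 CPM untreated and 0.546, 0.455 and 0.609 CPM treated. WAPL-NIPBL held the lowest untreated levels, 4.07, 2.26 and 4.23 CPM, and 0.346, 0.245 and 0.232 CPM after treatment. Treated and untreated libraries did not overlap in any of the 5 lines, including the control line that has no degron. Ordered by mean, the 4 treated degron groups were lowest and overlapped their neighbours, treated TIR1 stood apart above them, and untreated WAPL-NIPBL and untreated WAPL followed, each apart from the next higher group. Untreated TIR1, PDS5AB-NIPBL and PDS5AB overlapped at the top. In bulk RNA, fewer cells that express a gene and less RNA per cell cannot be told apart, here or for any gene below.

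On the log2 scale the Spry4 difference between treated and untreated was -2.61 ± 0.37 (SE) in TIR1, -3.41 ± 0.45 in WAPL, -3.69 ± 0.55 in WAPL-NIPBL, -4.52 ± 0.46 in PDS5AB-NIPBL and -5.54 ± 0.48 in PDS5AB. These correspond to levels 6.11, 10.6, 12.9, 22.9 and 46.4 times lower. The PDS5AB value depended on replicate 1: it was -4.77 without the untreated library of that number, -6.65 without the treated one and -5.88 without both. Spry4 had the widest spread of the set, with a biological coefficient of variation of 30.2%, above that of 93.4% of the genes tested. Counting ignored strand, and Spry4 overlaps 2 genes on the opposite strand (Gm27369 and Gm27804), so their reads cannot be told apart from its own where they overlap. The other 9 genes overlap no annotated gene.

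Dusp6, the ERK phosphatase of the cytoplasm, fell in all 5 lines. Its gene lies on chromosome 10 (99263231 to 99267489, plus strand). TIR1 libraries held 9.63, 11.1 and 11.6 CPM untreated and 5.20, 5.63 and 6.61 CPM after auxin, a change of -0.88 ± 0.20 on the log2 scale (SE; by edgeR's quasi-likelihood test, adjusted p = 0.00218). In PDS5AB the values were 15.6, 8.89 and 11.3 CPM untreated and 3.36, 1.37 and 2.29 CPM treated, and the change was -2.36 ± 0.22 (adjusted p = 8.54e-10). The change was -1.36 ± 0.21 in WAPL (adjusted p = 9.1e-06), -2.14 ± 0.23 in PDS5AB-NIPBL (3.81e-08) and -1.41 ± 0.22 in WAPL-NIPBL (7.17e-05). The treated libraries lay below the untreated ones in each of the 5 lines, with treated means of 2.34 to 5.81 CPM against untreated means of 7.57 to 12.5 CPM.

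Etv4, an ETS factor of the PEA3 group on chromosome 11 (101769742 to 101785371, minus strand), also fell in all 5 lines. Its libraries held 73.7, 63.3 and 57.5 CPM in untreated TIR1 and 24.7, 25.3 and 24.5 CPM after auxin, a change of -1.38 ± 0.24 on the log2 scale (adjusted p = 8.99e-05). PDS5AB held 53.7, 24.2 and 24.7 CPM untreated and 12.3, 7.87 and 7.35 CPM treated (-1.90 ± 0.26, adjusted p = 4.41e-07). Here too replicate 1 was the highest library of both PDS5AB groups. The changes in WAPL, PDS5AB-NIPBL and WAPL-NIPBL were -1.74 ± 0.25, -1.5 ± 0.25 and -1.57 ± 0.27, with adjusted p = 2.06e-06, 5.21e-05 and 0.000169. Untreated WAPL-NIPBL, at 19.8 ± 5.75 CPM (SD, n = 3), was already near the level of auxin-treated TIR1, at 24.8 ± 0.421 CPM. The largest difference between lines in the Etv4 change, PDS5AB minus TIR1, was -0.52 with a 95% interval of -1.22 to 0.18 (adjusted p = 0.284). It passed with no filter on low counts (-0.55, adjusted p = 0.00195) and in no other alternative run. That run gave Etv4 in TIR1 an adjusted p of 3.04e-40 at a change of -1.37, so its p-values are not like those of the main fit.

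**Figure D2:**
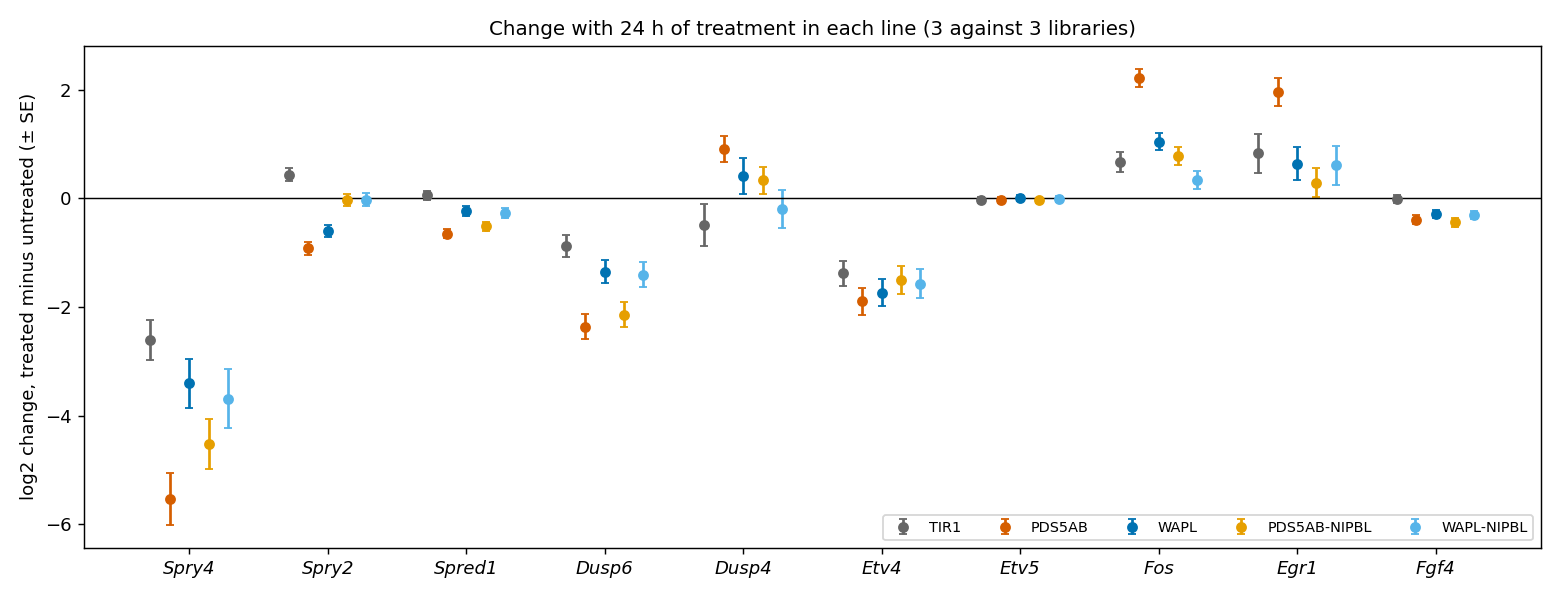
Log2 change with 24 h of treatment (treated minus untreated, 3 against 3 libraries) for each gene in each line; points are edgeR estimates and bars are standard errors. Spry4, Dusp6 and Etv4 lie below 0 in all 5 lines, Fos and Egr1 above 0, and Spry2 above 0 in TIR1 but below it in PDS5AB and WAPL.

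Spry2, a Sprouty inhibitor like Spry4, changed in opposite directions. In TIR1 its libraries held 76.5, 69.2 and 75.3 CPM untreated and 91.3, 96.1 and 111 CPM after auxin, a rise of 0.43 ± 0.12 on the log2 scale (adjusted p = 0.00936). It no longer passed once untreated TIR1 replicate 2 (adjusted p = 0.0516) or treated TIR1 replicate 3 (0.0639) was left out. In PDS5AB it fell from 79.3, 56.3 and 63.6 CPM to 38.3, 31.3 and 35.5 CPM (-0.92 ± 0.12, adjusted p = 3.3e-07). WAPL showed a fall from 95.8, 80.2 and 93.2 CPM to 67.1, 50.1 and 60.3 CPM (-0.60 ± 0.12, adjusted p = 0.000191). In the lines where NIPBL was targeted as well, the change did not pass the test: -0.03 with a 95% interval of -0.27 to 0.21 in PDS5AB-NIPBL (adjusted p = 0.905) and -0.03 with an interval of -0.27 to 0.22 in WAPL-NIPBL (adjusted p = 0.939). Treated PDS5AB was the lowest group, apart from all others, and treated TIR1 the highest.

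Spred1, a Spred inhibitor of RAS-RAF signalling, fell in the 4 degron lines. TIR1 libraries ran from 35.3 to 37.9 CPM untreated and from 37.7 to 38.4 CPM after auxin, a change of 0.05 ± 0.09 (adjusted p = 0.713). In PDS5AB the values went from 53.9, 43.1 and 46 CPM to 33.2, 29.4 and 28.4 CPM (-0.65 ± 0.09, adjusted p = 3.29e-07), and in PDS5AB-NIPBL from 51.4, 55.2 and 51.8 CPM to 38.6, 37.8 and 34.4 CPM (-0.52 ± 0.09, adjusted p = 5.13e-05). The falls in WAPL (-0.24 ± 0.09, adjusted p = 0.0331) and WAPL-NIPBL (-0.27 ± 0.09, adjusted p = 0.0462) were small and close to the threshold. The WAPL call was lost when 4 of its 6 libraries were left out in turn (untreated replicates 2 and 3, treated replicates 1 and 3; adjusted p of 0.0898 to 0.249), with no filter (0.0661) and with the compared groups alone (0.199). The WAPL-NIPBL call was lost when any 1 of its 6 libraries was left out (adjusted p of 0.0617 to 0.185) and with no filter (0.0701). Treated means of 36.9 to 38.5 CPM in WAPL, PDS5AB-NIPBL and WAPL-NIPBL stood beside 36.5 CPM in untreated TIR1, while all 3 treated PDS5AB libraries lay below every TIR1 library.

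Fgf4, the FGF ligand that embryonic stem cells make, fell by modest amounts in the 4 degron lines and not detectably in TIR1. Untreated group means ran from 260.4 to 274.9 CPM. After auxin TIR1 libraries held 273.9, 275.5 and 256.0 CPM (-0.01 ± 0.08, 95% interval -0.17 to 0.15, adjusted p = 0.959). Treated libraries held 176.3, 214.1 and 213.8 CPM in PDS5AB (-0.39 ± 0.08, adjusted p = 0.000117) and 195.8, 190.3 and 191.6 CPM in PDS5AB-NIPBL (-0.45 ± 0.08, adjusted p = 8.92e-05). In WAPL they held 220.8, 232.8 and 222.5 CPM (-0.29 ± 0.08, adjusted p = 0.00441), and in WAPL-NIPBL 196.4, 231.3 and 203.9 CPM (-0.31 ± 0.08, adjusted p = 0.00952). The last call was lost without treated replicate 1, treated replicate 3 or untreated replicate 2 of WAPL-NIPBL (adjusted p of 0.0639 to 0.0730). The 4 treated degron groups had the 4 lowest means of the 10, and within each degron line the treated libraries lay below the untreated ones.

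Etv5, the ETS factor closest to Etv4 in the set, did not pass the test in any line. Its group means lay between 390.7 and 469.5 CPM, and its largest treatment change was -0.04 on the log2 scale, with 95% intervals that reached no further than -0.15 and 0.11. It had a biological coefficient of variation of 5.09%, lower than that of nearly all genes tested (percentile 1.80). The Etv4 change lay outside these intervals in each of the 5 lines.

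Fos, a component of the AP-1 factor, rose in 4 of the 5 lines. Its gene lies on chromosome 12 (85473890 to 85477273, plus strand). PDS5AB libraries went from 4.89, 3.70 and 3.86 CPM to 20.7, 18.6 and 18.7 CPM, a change of 2.22 ± 0.16 on the log2 scale (adjusted p = 7.52e-12). WAPL libraries went from 6.83, 7.62 and 5.04 CPM to 14.8, 13.7 and 11.9 CPM (1.04 ± 0.16, adjusted p = 5.89e-06). PDS5AB-NIPBL rose from 7.10, 7.79 and 5.90 CPM to 11.8, 13.8 and 9.96 CPM (0.77 ± 0.16, adjusted p = 0.000767). In TIR1 the values were 3.75, 2.03 and 2.38 CPM untreated and 4.19, 4.57 and 4.26 CPM after auxin (0.67 ± 0.19, adjusted p = 0.0105), a call lost without untreated TIR1 replicate 2 (adjusted p = 0.0886) or replicate 3 (0.0613). WAPL-NIPBL gave 0.33 ± 0.16 (95% interval from just below 0 to 0.66, adjusted p = 0.241), with 6.11, 8.03 and 6.6 CPM untreated and 8.82, 9.19 and 8.18 CPM treated. The groups did not overlap in any line, and treated PDS5AB stood highest of the 10.

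Egr1, a zinc finger immediate early gene, was scarce throughout and passed the test in PDS5AB alone. There it rose from 1.18, 0.992 and 0.662 CPM to 4.25, 3.36 and 3.36 CPM, a change of 1.96 ± 0.26 on the log2 scale (adjusted p = 2.92e-07). The changes in TIR1, WAPL, PDS5AB-NIPBL and WAPL-NIPBL were 0.83 ± 0.36, 0.64 ± 0.31, 0.29 ± 0.27 and 0.60 ± 0.36, with adjusted p = 0.100, 0.114, 0.530 and 0.364. Those libraries held between 5 and 53 counts of Egr1 each, and 2 of these values passed the test when 1 library was left out: TIR1 without untreated replicate 1 (adjusted p = 0.0469) and WAPL without treated replicate 1 (0.0281).

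Dusp4, a nuclear ERK phosphatase, set the lines apart more than the treatment did. PDS5AB libraries held 4.32, 3.11 and 3.04 CPM untreated and 7.5, 6.30 and 5.78 CPM treated, a rise of 0.91 ± 0.25 (adjusted p = 0.00321). PDS5AB-NIPBL libraries held 3.62, 4.92 and 3.67 CPM untreated and 3.92, 6.36 and 5.01 CPM treated (0.33 ± 0.25, adjusted p = 0.422). In the TIR1, WAPL and WAPL-NIPBL groups the highest library held 1.58 CPM, and no treatment change passed the test (adjusted p = 0.414, 0.380 and 0.819). All 12 libraries of the 2 lines with tagged PDS5A and PDS5B were thus above all 18 of the others.

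Counted over the 9 genes read with a test (all but Spry4), 8 changed in PDS5AB (3 higher, 5 lower), beside 46% of all 19868 genes tested (25.8% higher, 20.2% lower). In WAPL 6 changed (1 higher, 5 lower), beside 32.8% of all genes (17% higher, 15.8% lower). Auxin alone in TIR1 changed 4 (2 higher, 2 lower), beside 19.9% (10.4% higher, 9.59% lower). In PDS5AB-NIPBL 5 changed (1 higher, 4 lower), beside 19.5% (11.4% higher, 8.06% lower), and in WAPL-NIPBL 4 changed (all lower), beside 8.57% (5.11% higher, 3.45% lower). Leaving out Spry4, the treated and untreated libraries did not overlap for 4 of the 9 genes in TIR1 (39.2% of all genes), 5 in WAPL (40.2%), 6 in WAPL-NIPBL (27%), 5 in PDS5AB-NIPBL (33.4%) and 8 in PDS5AB (52.8%). The median log2 change over the same 9 genes was -0.01 in TIR1, -0.24 in WAPL, -0.20 in WAPL-NIPBL, -0.04 in PDS5AB-NIPBL and -0.39 in PDS5AB, where the median of all genes lay between -0.01 and 0.04. With a required 2-fold change, PDS5AB had 4 calls (13% of all genes), WAPL 3 (8.82%), PDS5AB-NIPBL 2 (4.18%), WAPL-NIPBL 2 (1.75%) and TIR1 1 (3.69%).

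Before any treatment, the lines already differed in these genes. Against untreated TIR1, untreated PDS5AB was higher for Spred1 (log2 difference 0.38 ± 0.09, adjusted p = 0.000755), Dusp4 (2.40 ± 0.32, 4.37e-07), Etv5 (0.22 ± 0.05, 0.00209), Egr1 (1.48 ± 0.34, 0.00107) and Fos (0.60 ± 0.19, 0.0145), and lower for Etv4 (-0.93 ± 0.23, 0.00238). These are 6 of the 10 genes, beside 32% of all genes (15.5% higher, 16.5% lower). Untreated PDS5AB-NIPBL differed for 7 (beside 34.3%, with 16.5% higher, 17.8% lower): Spry2, Spred1, Dusp4 (2.62 ± 0.32), Etv5, Egr1 (1.99 ± 0.33) and Fos (1.33 ± 0.18) were higher and Etv4 (-0.80 ± 0.23) lower. Spry4 there (adjusted p = 0.268) passed with no filter (0.49, 0.0134). Untreated WAPL-NIPBL differed for 5 (beside 28%, with 13.4% higher, 14.6% lower), with Spred1, Etv5 and Fos (1.34 ± 0.18) higher and Spry4 (-1.37 ± 0.35, adjusted p = 0.0038) and Etv4 (-1.72 ± 0.24, adjusted p = 3.2e-06) lower. In untreated WAPL 2 genes were higher, Spred1 (0.31 ± 0.09) and Fos (1.25 ± 0.18), beside 14% of all genes (6.62% higher, 7.39% lower). That count was 4 with the replicate numbers as a block (Spry2 and Etv4 added), and 5 with no filter or with the compared groups alone (Spry2, Etv4 and Spry4 added). Dusp6 and Fgf4 were not called against TIR1 in any of the 4 lines, but Dusp6 in WAPL-NIPBL (adjusted p = 0.0618) passed with no filter (-0.49, 0.00940) and with the compared groups alone (-0.51, 0.00535). Except for PDS5AB these comparisons cross the library numbering.

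Calls against TIR1 that ended when 1 library was left out were Fos in PDS5AB (untreated TIR1 replicates 2 and 3, PDS5AB replicate 1; adjusted p of 0.0843 to 0.109), Spred1 in WAPL (TIR1 replicate 2, WAPL replicate 2; 0.0686 and 0.110) and Spry2 in PDS5AB-NIPBL (TIR1 replicates 2 and 3, PDS5AB-NIPBL replicates 1 and 3; 0.0501 to 0.105). Etv4 in PDS5AB-NIPBL (replicates 1 and 2; 0.0628 and 0.0536) and Etv5 in WAPL-NIPBL (TIR1 replicates 1 and 3, WAPL-NIPBL replicate 1; 0.0675 to 0.189) were the others. The Etv5 call was also lost with no filter (0.140) and with the compared groups alone (0.0960), and Fos in PDS5AB with the compared groups alone (0.0697). Spry4 in PDS5AB was 0.73 ± 0.32 above TIR1 (adjusted p = 0.0787), and passed with no filter (1.6e-05). The value rested on PDS5AB replicate 1: without that library it was -0.03 (adjusted p = 0.948), and without PDS5AB replicate 2 or replicate 3 it was 1.05 (0.0102) or 0.96 (0.0346). DESeq2 gave 0.75 (0.197).

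Within library numbers 25 to 42, WAPL-NIPBL had less of 5 genes than PDS5AB-NIPBL before treatment (beside 22.9% of all genes, with 11.5% higher, 11.4% lower). These were Spry4 (-1.84 ± 0.35, adjusted p = 0.000158), Dusp4 (-2.09 ± 0.30, 2.95e-06), Egr1 (-1.85 ± 0.33, 6.97e-05), Dusp6 (-0.72 ± 0.20, 0.00818) and Etv4 (-0.92 ± 0.24, 0.00521). The count was 3 without PDS5AB-NIPBL replicate 3, which ended the calls of Dusp6 (adjusted p = 0.0515) and Etv4 (0.0885), and Etv4 was also lost without WAPL-NIPBL replicate 2 (0.0555). PDS5AB-NIPBL exceeded WAPL for 3 genes (beside 20.1%, with 9.46% higher, 10.6% lower), Spry4 (1.05 ± 0.33, adjusted p = 0.0205), Dusp4 (2.28 ± 0.30, 9.71e-07) and Egr1 (1.20 ± 0.30, 0.0037), and for 5 with the replicate block, which added Spred1 and Etv5. The Spry4 call was lost without PDS5AB-NIPBL replicate 3 (0.223), WAPL replicate 1 (0.0657) or WAPL replicate 2 (0.0903), and with DESeq2 (0.0764). WAPL-NIPBL was lower than WAPL for Etv4 (-1.14 ± 0.24, adjusted p = 0.00157), beside 10.7% of all genes (4.99% higher, 5.67% lower). Spry4 there (adjusted p = 0.178) passed with no filter (-0.79, 0.000337) and with the compared groups alone (-0.79, 0.0452).

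The treatment changes of the degron lines were then set against that of TIR1 (treated libraries 43 to 45 against untreated libraries from 1 to 21). PDS5AB differed from TIR1 for 6 of the 9 genes, beside 26.3% of all genes (13.9% higher, 12.4% lower). Fos (1.55 ± 0.25, adjusted p = 2.66e-05) and Dusp4 (1.40 ± 0.47, 0.0255) changed upward relative to TIR1, and Spry2 (-1.35 ± 0.17, 7.55e-07), Dusp6 (-1.48 ± 0.30, 0.000484), Spred1 (-0.71 ± 0.12, 6.67e-05) and Fgf4 (-0.38 ± 0.11, 0.0092) downward. The Dusp4 difference was lost when 7 of 12 libraries were left out in turn (untreated TIR1 replicates 1 and 2, treated TIR1 replicates 2 and 3, untreated PDS5AB replicates 2 and 3, treated PDS5AB replicate 1; adjusted p of 0.0504 to 0.0903). Egr1 gave 1.13 ± 0.45 (adjusted p = 0.0649). It passed without untreated PDS5AB replicate 1 (0.0388), untreated TIR1 replicate 3 (0.0218) or treated TIR1 replicate 1 (0.0324). The Spry4 difference was -2.92 ± 0.65, and ranged from -4.06 without treated PDS5AB replicate 1 to -2.16 without untreated PDS5AB replicate 1. It was -3.26 without replicate 1 in both PDS5AB groups.

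In PDS5AB-NIPBL the change differed from TIR1 for 3 genes, all downward (beside 10.1% of all genes, with 5.28% higher, 4.81% lower): Dusp6 (-1.26 ± 0.30, adjusted p = 0.00661), Spred1 (-0.57 ± 0.12, 0.00234) and Fgf4 (-0.44 ± 0.11, 0.0089). Spry2 (adjusted p = 0.0750) passed as well with the replicate block (-0.47, 0.00298), with no filter (-0.49, 0.00161) and with the compared groups alone (-0.45, 0.0133). Spry4 gave -1.91 ± 0.63. In WAPL only Spry2 differed (-1.04 ± 0.17, adjusted p = 3.39e-05; beside 20.7%, with 9.86% higher, 10.9% lower), and with the replicate block Fgf4 as well (-0.28, adjusted p = 0.0335). The count was also 2 without untreated WAPL replicate 1 or treated WAPL replicate 2, where Spred1 passed (adjusted p = 0.0402 and 0.0227). In WAPL-NIPBL none of the 9 passed with edgeR or with DESeq2 (beside 7.04%, with 3.10% higher, 3.94% lower), although 3 had an unadjusted p under 0.05 (Fgf4, Spry2 and Spred1). With the replicate block Spry2 (-0.46, adjusted p = 0.0049) and Fgf4 (-0.30, 0.0449) passed, and without treated WAPL-NIPBL replicate 2 Fgf4 passed (0.0288). Spry4 gave -0.80 ± 0.61 in WAPL and -1.08 ± 0.72 in WAPL-NIPBL. The NIPBL lines also carry RAD21-Halo and received dTAG-13, unlike TIR1, and these cannot be told apart from the depletion.

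**Figure D3:**
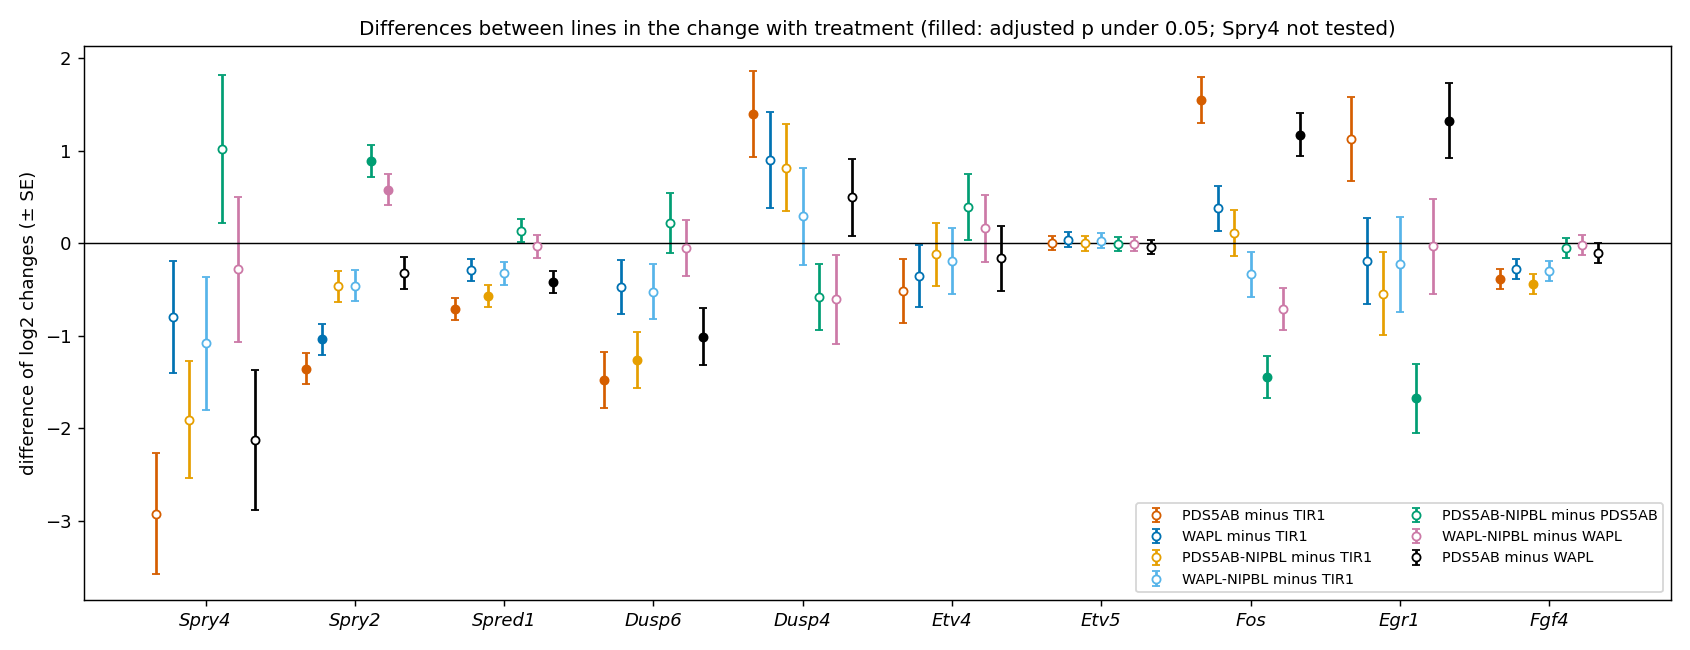
Differences between lines in the log2 change with treatment, for each gene; points are edgeR estimates, bars standard errors, and filled points passed an adjusted p under 0.05 (Spry4 was not tested). Spry2, Fos and Egr1 show filled points for the comparison of PDS5AB-NIPBL with PDS5AB, at 0.89, -1.45 and -1.67.

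Adding the NIPBL degron went with a different response of 3 genes in the PDS5AB background (beside 9.46% of all genes, with 4.97% higher, 4.48% lower). The Fos change was 1.45 smaller (-1.45 ± 0.23, adjusted p = 0.000128), the Egr1 change was 1.67 smaller (-1.67 ± 0.37, adjusted p = 0.00384), and the Spry2 change was 0.89 ± 0.17 higher (adjusted p = 0.000914). The falls of Dusp6 (difference 0.22, 95% interval -0.44 to 0.87), Etv4 (0.40, -0.33 to 1.12), Spred1 (0.14, -0.11 to 0.38) and Fgf4 (-0.05, -0.28 to 0.17) were not shown to differ. For Spry4 the difference was 1.02 ± 0.80. It was 0.26 without untreated PDS5AB replicate 1, 2.14 without the treated one and 1.36 without both. PDS5AB and PDS5AB-NIPBL lie in different ranges of library numbers, and the second line also carries RAD21-Halo and received dTAG-13, so these differences cannot be told apart from that of NIPBL depletion.

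In the WAPL background, within one range of library numbers, 1 gene differed (beside 5.19% of all genes, with 3.03% higher, 2.16% lower). Spry2 was 0.58 ± 0.17 higher in WAPL-NIPBL than in WAPL (adjusted p = 0.0388). The call was lost when 8 of 12 libraries were left out in turn (treated replicates 1 and 3 and untreated replicates 2 and 3 of WAPL-NIPBL, untreated replicates 1 and 3 and treated replicates 2 and 3 of WAPL; adjusted p of 0.0591 to 0.139) and with the compared groups alone (0.0856). Fos gave -0.71 ± 0.23 (adjusted p = 0.0643), and passed with the replicate block (0.0167), with no filter (0.0171), with DESeq2 (0.0235) and without untreated WAPL replicate 2 (0.0393). Dusp6 (-0.05, 95% interval -0.68 to 0.58) and Etv4 (0.16, -0.58 to 0.90) were not shown to differ, and Spry4 gave -0.28 ± 0.78. WAPL-NIPBL also carries RAD21-Halo and received dTAG-13, unlike WAPL, and these cannot be told apart from NIPBL depletion.

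Between the 2 AID lines, PDS5AB changed more than WAPL for 4 of the 9 genes (beside 12.5% of all genes, with 7.38% higher, 5.11% lower): Fos (1.18 ± 0.23, adjusted p = 0.000617) and Egr1 (1.32 ± 0.41, 0.0279) upward, and Dusp6 (-1.01 ± 0.31, 0.0282) and Spred1 (-0.42 ± 0.12, 0.0200) downward. The Fos call held in each alternative run here. The others did not: with the compared groups alone the count was 1, and Egr1 was lost with no filter (0.0530) and without untreated PDS5AB replicate 3, treated PDS5AB replicate 1, untreated WAPL replicate 2, untreated WAPL replicate 3 or treated WAPL replicate 1 (adjusted p of 0.0567 to 0.0922). Dusp6 was lost without untreated PDS5AB replicate 1, treated PDS5AB replicate 2 or 3, untreated WAPL replicate 3 or treated WAPL replicate 2 (0.0503 to 0.114). Spred1 was lost without untreated PDS5AB replicate 1, treated PDS5AB replicate 3, untreated WAPL replicate 1 or treated WAPL replicate 2 (0.0502 to 0.0735). Spry4, not tested, gave -2.13 ± 0.76, with -3.27 to -1.36 over the alternative runs. The PDS5AB and WAPL lines lie in different ranges of library numbers.

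PDS5AB replicate 1 was 1.10 above its group mean in log2 CPM of Spry4 untreated and 1.26 above it treated. PDS5AB replicate 2 was below the mean in both groups, by -0.77 and -0.96. The cause of this spread was not tested.

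**Figure D4:**
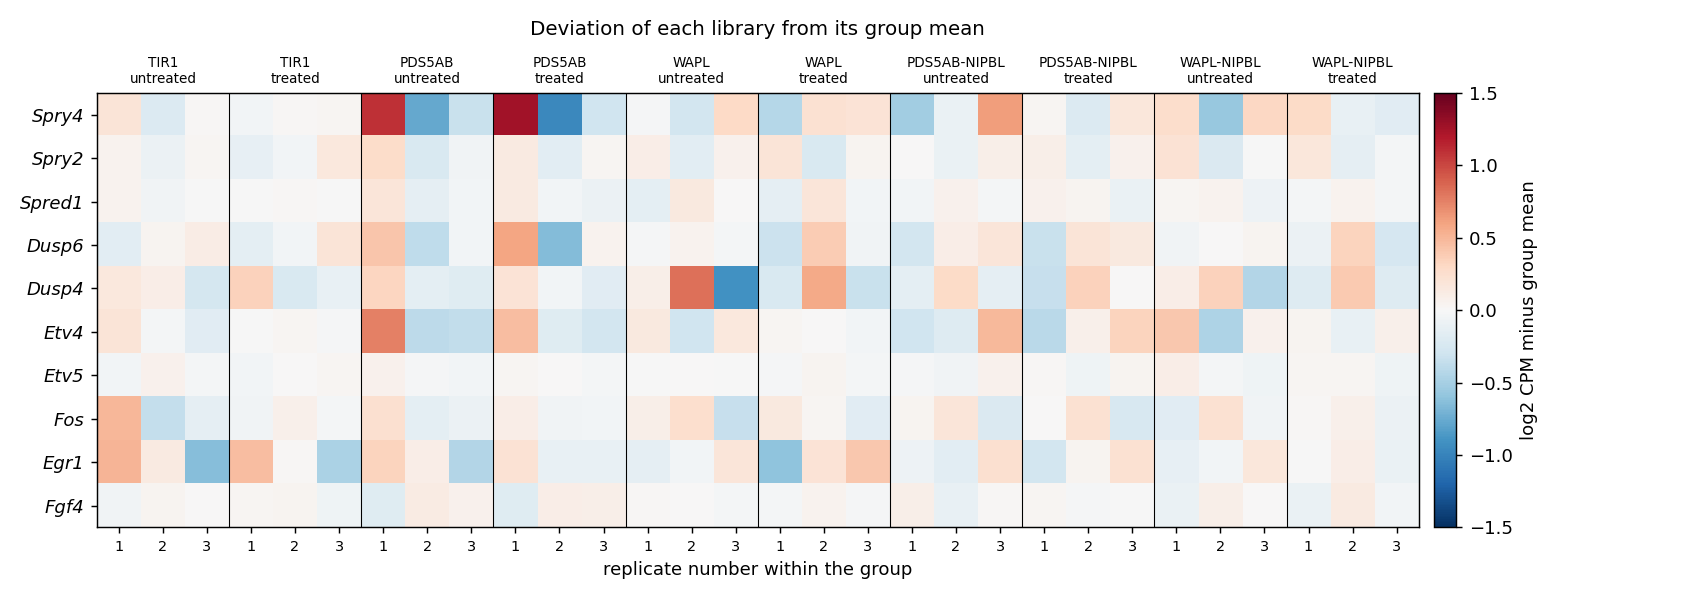
Deviation of each library's log2 CPM from its group mean, for each gene (rows) and library (columns, 3 per group); red is above the mean and blue below. Replicate 1 of both PDS5AB groups is red for Spry4, Dusp6 and Etv4, and replicate 3 of untreated PDS5AB-NIPBL is red for Spry4 and Etv4.

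Across the 10 group means of log2 CPM, the patterns most like that of Spry4, among 12932 genes averaging 50 counts or more, were those of Zfp42-ps1 (r = 0.979), Epb41l4a (0.978), Slc25a13 (0.974), Zfp42 (0.971) and Faf1 (0.971), leaving out the 10 genes themselves. Zfp42-ps1 is a processed copy of Zfp42 (Rex1, a naive pluripotency marker), so their reads may be shared and the pair may count as 1 pattern. Within the set Dusp6 was closest to Spry4 (r = 0.988), then Etv4 (0.913), Fgf4 (0.857) and Spred1 (0.761). Spry2 (0.375), Etv5 (0.016) and Dusp4 (-0.102) showed little likeness, and Egr1 (-0.410) and Fos (-0.766) ran the other way. The 10 groups share the treatment, and ranking by Spearman's correlation kept 0 of those 5 genes, so this order is a description of 10 points only.

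The other genes of the pathway, 67 of 69 listed being tested, were called at a share close to that of all genes in PDS5AB and above it in the other 4 lines. In PDS5AB 44.8% of them were called (20 higher, 10 lower), in WAPL 41.8% (11 and 17), in PDS5AB-NIPBL 37.3% (12 and 13), in TIR1 25.4% (12 and 5) and in WAPL-NIPBL 16.4% (4 and 7). The corresponding shares of all genes were 46%, 32.8%, 19.5%, 19.9% and 8.57%. Of 12 receptors and adaptors, 7 were higher and 0 lower in PDS5AB (58.3% called), 6 and 1 in PDS5AB-NIPBL (58.3%), 3 and 2 in WAPL (41.7%), 3 and 1 in TIR1 (33.3%) and 3 and 0 in WAPL-NIPBL (25%). All genes stood at 25.8% higher and 20.2% lower in PDS5AB and at 11.4% and 8.06% in PDS5AB-NIPBL. Among them Fgfr4, an FGF receptor, rose from 3.33 ± 0.723 to 9.28 ± 1.47 CPM (SD, n = 3) in PDS5AB (log2 change 1.48 ± 0.16, adjusted p = 1.58e-08), and also rose in PDS5AB-NIPBL (1.14 ± 0.17, 1.25e-05) and WAPL-NIPBL (0.58 ± 0.16, 0.0208). Fgfr2, an FGF receptor prominent in primitive endoderm, rose from 9.29 ± 1.94 to 18.8 ± 0.540 CPM in WAPL (1.02 ± 0.17, adjusted p = 2.53e-05), and also rose in PDS5AB (1.12 ± 0.17, 2.47e-06) and PDS5AB-NIPBL (0.90 ± 0.18, 0.000381). Of the 13 genes of the RAS-RAF-MEK-ERK core, 3 were higher and 3 lower in WAPL (46.2% called), 1 and 2 in PDS5AB (23.1%), 2 and 2 in PDS5AB-NIPBL (30.8%), 2 and 0 in TIR1 (15.4%) and 1 and 1 in WAPL-NIPBL (15.4%). The kinase gene Rps6ka3 rose in WAPL (0.49 ± 0.08, adjusted p = 7.25e-06) and PDS5AB-NIPBL (0.36 ± 0.08, 0.000663). Map2k1, which encodes MEK1, fell in WAPL (-0.46 ± 0.08, 3.76e-05), PDS5AB-NIPBL (-0.29 ± 0.08, 0.00856) and WAPL-NIPBL (-0.27 ± 0.08, 0.0291). Ksr1, which encodes a scaffold of the cascade, rose in PDS5AB (0.57 ± 0.09, adjusted p = 5.58e-06), TIR1 (0.43 ± 0.09, 0.00102), WAPL (0.38 ± 0.09, 0.00131) and PDS5AB-NIPBL (0.31 ± 0.09, 0.0171).

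Of 12 other feedback inhibitors, 11 were in the table and tested. Spred3, another Spred gene, fell in all 5 lines: TIR1 (-0.79 ± 0.13, adjusted p = 5.48e-05), PDS5AB (-0.55 ± 0.13, 0.000627), WAPL (-0.43 ± 0.13, 0.0136), PDS5AB-NIPBL (-0.89 ± 0.13, 1.25e-05) and WAPL-NIPBL (-0.91 ± 0.15, 8.0e-05). Dusp5, another ERK phosphatase, fell in WAPL (-1.15 ± 0.21, adjusted p = 5.9e-05) and PDS5AB-NIPBL (-0.64 ± 0.21, 0.0335), and Dusp1 rose in PDS5AB from 28.2 ± 1.82 to 51.5 ± 3.04 CPM (0.87 ± 0.14, adjusted p = 4.61e-06). The list had 2 higher and 2 lower in TIR1 and in PDS5AB, 1 and 2 in WAPL, 0 and 2 in PDS5AB-NIPBL and 0 and 1 in WAPL-NIPBL. The share called was 36.4% beside 46% of all genes in PDS5AB, 27.3% beside 32.8% in WAPL and 36.4% beside 19.9% in TIR1. In PDS5AB-NIPBL (18.2% beside 19.5%) and WAPL-NIPBL (9.09% beside 8.57%) it was close to that of all genes. With only 11 genes, these differences rest on few genes and were not tested.

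Among 16 tested immediate early genes and ETS targets, 7 were higher and 4 lower in PDS5AB, 3 and 5 in WAPL, 2 and 4 in PDS5AB-NIPBL, 4 and 2 in TIR1 and 0 and 4 in WAPL-NIPBL. All genes stood at 25.8% higher and 20.2% lower in PDS5AB, 17% and 15.8% in WAPL, 11.4% and 8.06% in PDS5AB-NIPBL, 10.4% and 9.59% in TIR1 and 5.11% and 3.45% in WAPL-NIPBL. Atf3, a stress-inducible factor of the AP-1 family, rose in PDS5AB (1.97 ± 0.17, adjusted p = 1.36e-10), WAPL (1.36 ± 0.18, 8.53e-07) and PDS5AB-NIPBL (1.35 ± 0.20, 1.13e-05). Jun, the partner of Fos, rose in TIR1 (0.64 ± 0.17, adjusted p = 0.00606), PDS5AB (1.51 ± 0.15, 1.78e-09), WAPL (0.80 ± 0.16, 0.000181) and PDS5AB-NIPBL (0.90 ± 0.15, 7.56e-05). Etv1, the third PEA3 factor, fell in TIR1 (-0.60 ± 0.14, adjusted p = 0.00294), PDS5AB (-1.45 ± 0.15, 2.85e-09), PDS5AB-NIPBL (-0.85 ± 0.15, 6.51e-05) and WAPL-NIPBL (-0.52 ± 0.16, 0.0326). Ccnd1, which encodes cyclin D1, fell from 65.8 ± 8.34 to 19.3 ± 4.23 CPM in PDS5AB (-1.77 ± 0.13, adjusted p = 3.57e-12), and also fell in WAPL (-0.93 ± 0.12, 2.87e-07) and PDS5AB-NIPBL (-1.0 ± 0.12, 4.96e-07). Epha4, an ephrin receptor, fell from 201.7 ± 13.9 to 71.2 ± 13.8 CPM in WAPL (-1.5 ± 0.10, adjusted p = 7.64e-13). It also fell in PDS5AB (-0.73 ± 0.10, adjusted p = 3.15e-07), PDS5AB-NIPBL (-0.52 ± 0.10, 0.000175) and WAPL-NIPBL (-0.65 ± 0.10, 2.75e-05), but rose in TIR1 (0.32 ± 0.10, 0.0169). Of 8 ERK-responsive transcription factors, Ets2 fell in WAPL (-0.81 ± 0.10, adjusted p = 1.92e-07), PDS5AB-NIPBL (-0.49 ± 0.10, 0.000800) and WAPL-NIPBL (-0.57 ± 0.10, 0.000246). Erf, an ETS repressor inactivated by ERK, fell in PDS5AB (-0.56 ± 0.12, adjusted p = 0.000272) and PDS5AB-NIPBL (-0.54 ± 0.12, 0.00147). Ets1, the founding ETS factor, rose in PDS5AB (1.26 ± 0.24, adjusted p = 8.30e-05) and PDS5AB-NIPBL (0.79 ± 0.28, 0.0453), and Elk1 rose in TIR1 (0.20 ± 0.07, 0.0436). That list had 1 higher and 1 lower in PDS5AB, 0 and 3 in WAPL, 1 and 2 in PDS5AB-NIPBL, 1 and 0 in TIR1 and 0 and 1 in WAPL-NIPBL. Of 7 other FGF ligands, Fgf17 fell in PDS5AB (-2.18 ± 0.33, adjusted p = 2.33e-06), WAPL (-1.55 ± 0.27, 3.98e-05) and PDS5AB-NIPBL (-1.12 ± 0.23, 0.000779), and 0 of the list were called in TIR1 or WAPL-NIPBL. The ligands moved both ways: 2 were higher (Fgf8 and Fgf18) and 1 lower in PDS5AB, 1 higher (Fgf18) and 2 lower in WAPL, and 1 higher (Fgf8) and 2 lower in PDS5AB-NIPBL. Fgf8 and Fgf18 were named after their values were seen.

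**Figure D5:**
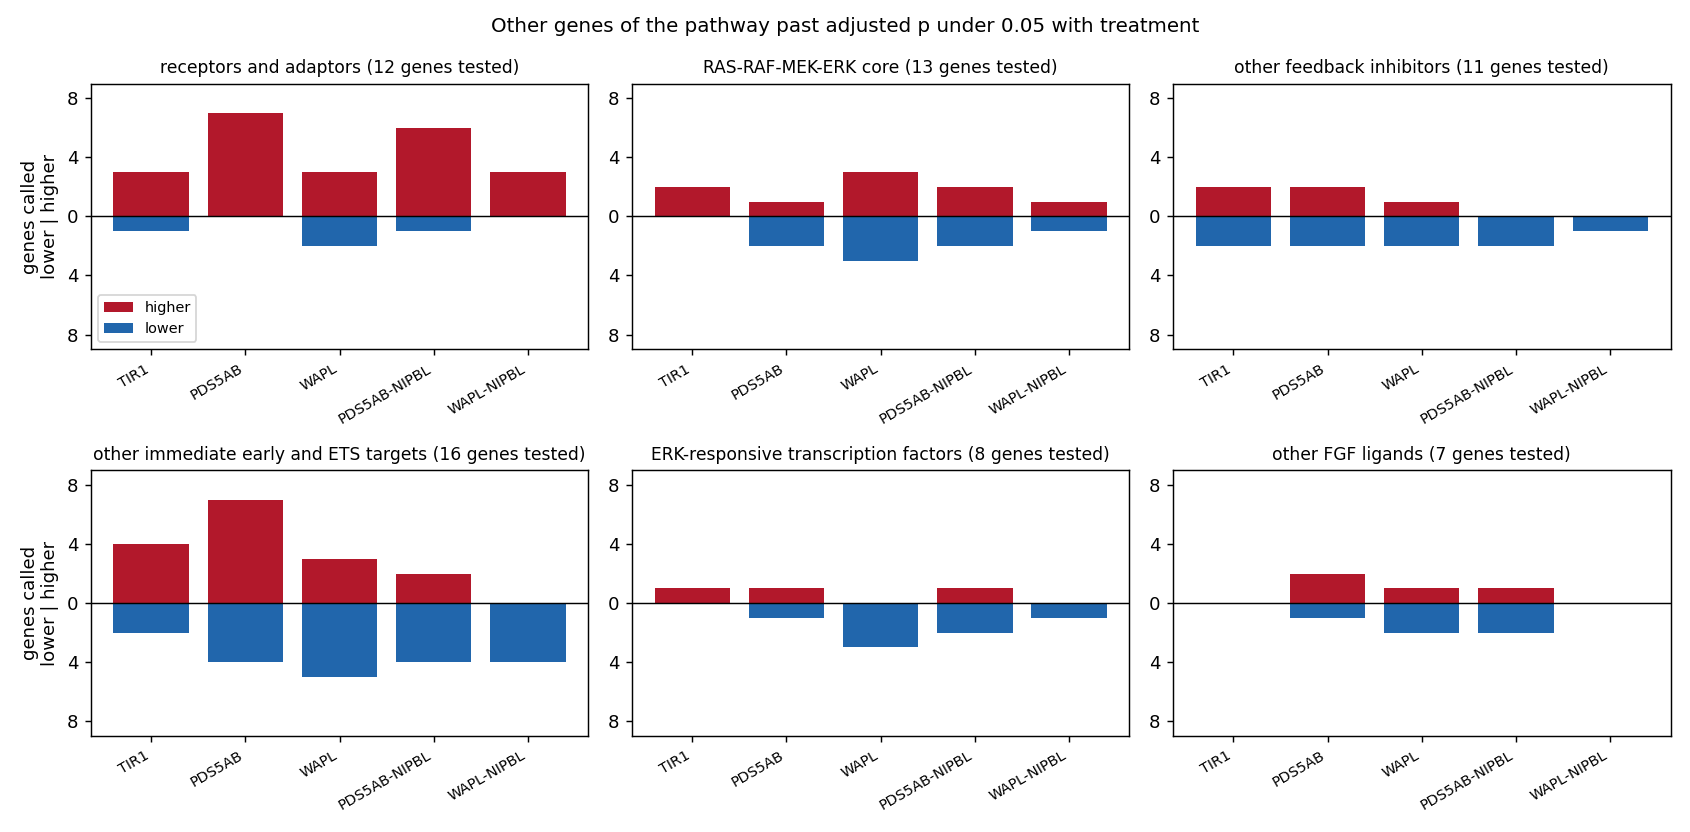
Number of other pathway genes, by list, that passed an adjusted p under 0.05 with treatment in each line; red bars above 0 count higher genes and blue bars below 0 lower ones. Receptors and adaptors reach 7 higher and 0 lower in PDS5AB, while other feedback inhibitors stay at 2 or fewer in each direction.

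Sums of the marker lists moved with the treatment in the same libraries. The summed level of the 6 primitive endoderm markers had a median of 7.83 CPM in untreated and 10.6 CPM in treated TIR1, 24.3 and 64.0 CPM in PDS5AB, 11.6 and 41.4 CPM in WAPL, 12.5 and 33 CPM in PDS5AB-NIPBL, and 5.76 and 14.2 CPM in WAPL-NIPBL. Treated libraries lay above untreated ones in all 5 lines. The summed pluripotency markers went from a median of 7938 to 5418 CPM in PDS5AB, from 7358 to 5826 CPM in WAPL, from 7817 to 6315 CPM in PDS5AB-NIPBL and from 7316 to 6162 CPM in WAPL-NIPBL, without overlap, and from 7320 to 7218 CPM in TIR1, where the untreated range of 7161 to 7497 CPM overlapped the treated range of 6781 to 7224 CPM. The trophoblast sum went from a median of 79.5 to 131 CPM in TIR1 and from 48.3 to 54.5 CPM in PDS5AB, but from 92.3 to 30.4 CPM in WAPL, from 55.1 to 31.1 CPM in PDS5AB-NIPBL and from 61.0 to 32.2 CPM in WAPL-NIPBL, without overlap in any line. The fibroblast feeder sum went from 14 to 4.90 CPM in WAPL, from 15.4 to 11.1 CPM in TIR1 and from 10.4 to 7.65 CPM in WAPL-NIPBL, but from 18.3 to 21.6 CPM in PDS5AB, also without overlap; in PDS5AB-NIPBL the groups overlapped. The neural sum was lower after treatment in all 5 lines, with untreated medians of 5.21 to 8.95 CPM and treated medians of 3.15 to 5.55 CPM, without overlap. Over all libraries Tfap2c had a median of 43.6 CPM where the trophoblast sum had 54.8 CPM. Sox1 had 4.71 CPM where the neural sum had 5.35 CPM. Each of those sums thus mostly followed a single gene. The streak and mesoderm sum went from 22.6 to 28.5 CPM in TIR1 and from 18.8 to 26.6 CPM in WAPL-NIPBL, but from 22.2 to 19.4 CPM in PDS5AB, without overlap; in WAPL and PDS5AB-NIPBL the groups overlapped. The part of these markers in the results was not tested.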

How the data were processed

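Messenger RNA was counted in 30 libraries of 5 lines, 3 libraries in each of 10 groups taken from the sample labels. The table holds raw counts per gene as the authors deposited them, made with featureCounts 2.0.1 for read pairs, with no strand option and GENCODE vM23 annotation, per the file headers. Libraries were stranded and polyA-selected, per the labels' protocols; other label fields name genomic DNA as the molecule, and the data were treated as RNA-seq here. In addition, the submitters' processing notes name cutadapt, STAR 2.7.7a, deepTools, mm10 and GRCm38.p6. Because the counting ignored strand, reads where genes overlap on opposite strands could not be assigned by strand. Symbols were matched for 55154 of 55421 genes.

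The counts were scaled by TMM (factors 0.950 to 1.13) with edgeR 4.0.16 in R 4.3.3. Genes passing filterByExpr (minimum count 10), 19868 in all, were fitted with 1 mean per group over all 30 libraries, which leaves 20 residual degrees of freedom. Contrasts were tested with the quasi-likelihood F-test, two-sided, with Benjamini-Hochberg adjustment over all genes and a threshold of 0.05. Standard errors are the log2 change divided by the root of the F statistic, and intervals are 95%. CPM values are scaled by TMM, and CPM per kb divides by the table's gene length. Group-mean patterns used log2 CPM with a prior count of 2. The script was tested on simulated data.

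The members and lists were chosen with earlier results of these data known. All 10 members are named. Of each other list the called gene with the largest change in each direction and a mean of at least 50 counts may be named in each treatment effect, and the 5 non-members with the highest r for the pattern of Spry4. The total count per library, 19632704 to 45539021, and 3 libraries a group limit precision. Replicate numbers were checked for pairing: deviations of same-numbered untreated and treated libraries correlated above 0.1 in all 3 pairs of each degron line (0.109 to 0.333) and in none of TIR1 (-0.0102 to 0.0574), 12 of 15 pairs in all. The fits were repeated with the replicate block, with the compared groups alone, with each library left out in turn, with a 2-fold minimum, without the low-count filter, with DESeq2 1.42.0 and with RLE scaling. One more, without PDS5AB replicate 1, was chosen after seeing the data.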

Additional observations from a re-analysis of the deposited data

Results flagged for a closer look

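These results differed between lines in the test of the difference itself, with edgeR's quasi-likelihood test adjusted over all genes. Values are differences between 2 lines in the log2 change with treatment, over 3 libraries per group.

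Against TIR1, the change in PDS5AB differed for Spry2 by -1.35 (adjusted p = 7.55e-07), for Dusp6 by -1.48 (0.000484), for Spred1 by -0.71 (6.67e-05), for Fgf4 by -0.38 (0.0092), for Fos by 1.55 (2.66e-05) and for Dusp4 by 1.40 (0.0255). The change in PDS5AB-NIPBL differed from TIR1 for Dusp6 by -1.26 (0.00661), Spred1 by -0.57 (0.00234) and Fgf4 by -0.44 (0.0089). For WAPL against TIR1, Spry2 differed by -1.04 (3.39e-05). Each of these compares with a TIR1 effect that crosses the library numbering. PDS5AB-NIPBL also carries RAD21-Halo and received dTAG-13, unlike TIR1.

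Between PDS5AB-NIPBL and PDS5AB the change differed for Spry2 by 0.89 (0.000914), for Egr1 by -1.67 (0.00384) and for Fos by -1.45 (0.000128). Between WAPL-NIPBL and WAPL it differed for Spry2 by 0.58 (0.0388). Between PDS5AB and WAPL it differed for Fos by 1.18 (0.000617), Egr1 by 1.32 (0.0279), Dusp6 by -1.01 (0.0282) and Spred1 by -0.42 (0.0200). The NIPBL lines also carry RAD21-Halo and received dTAG-13, unlike PDS5AB and WAPL.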

How the results depend on the processing

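No called change reversed its direction in any alternative run. RLE size factors and the replicate block ended no call, and DESeq2 ended 1 (Spry4 between untreated PDS5AB-NIPBL and WAPL). The block was shared by all lines, so pairing within each line was not fitted. All 100 group levels stayed within 1 SD with RLE size factors. With no filter, log2 changes barely moved while adjusted p from edgeR's test shifted widely. Etv4 in TIR1 went from 8.99e-05 to 3.04e-40, and Etv5 in untreated WAPL-NIPBL minus TIR1 from 0.0331 to 0.140. The counts of each gene were the same, so calls gained with no filter are not separate evidence. The 3 libraries per group, the low counts of treated Spry4, Egr1 and Dusp4, and the single cell line per genotype limit precision.

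Counts of genes that passed moved by over 1.5 times as follows. With no filter, untreated WAPL minus TIR1 gave 5 in place of 2, untreated WAPL-NIPBL minus WAPL 2 in place of 1, and the differences in treatment change 1 in place of 0 for WAPL-NIPBL minus TIR1 and 2 in place of 1 for WAPL-NIPBL minus WAPL. With the replicate block the counts were 4 for untreated WAPL minus TIR1, 5 in place of 3 for untreated PDS5AB-NIPBL minus WAPL, and 2 each for the differences WAPL minus TIR1, WAPL-NIPBL minus TIR1 and WAPL-NIPBL minus WAPL; the block added single calls of Spry2 in untreated WAPL-NIPBL minus TIR1 (adjusted p = 0.0415), of Spred1 in untreated WAPL-NIPBL minus PDS5AB-NIPBL (0.0477) and of Spry2 in the difference PDS5AB-NIPBL minus TIR1 (0.00298), and changed no other call. With the compared groups alone, untreated WAPL minus TIR1 gave 5, untreated WAPL-NIPBL minus WAPL 2, and the differences gave 2 for WAPL minus TIR1, 3 for WAPL-NIPBL minus TIR1, 0 for WAPL-NIPBL minus WAPL and 1 in place of 4 for PDS5AB minus WAPL. DESeq2 gave 2 for the difference WAPL-NIPBL minus WAPL.

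A 2-fold minimum left 1, 4, 3, 2 and 2 treatment calls in TIR1, PDS5AB, WAPL, PDS5AB-NIPBL and WAPL-NIPBL, beside 3.69%, 13%, 8.82%, 4.18% and 1.75% of all genes. It left 2, 1, 3 and 3 against untreated TIR1 in PDS5AB, WAPL, PDS5AB-NIPBL and WAPL-NIPBL (12%, 3.07%, 10.2% and 6.93% of all genes), 3 for untreated WAPL-NIPBL minus PDS5AB-NIPBL (7.74%), 1 for the difference PDS5AB-NIPBL minus TIR1 (3.29%) and 0 for WAPL-NIPBL minus WAPL (1.46%). Ranking by Spearman kept 0 of the 5 genes most like Spry4.

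Leaving out each library in turn gave 2 to 5 treatment calls in TIR1, 2 to 3 in WAPL-NIPBL, 1 to 2 for untreated WAPL minus TIR1 and 3 to 5 for untreated WAPL-NIPBL minus PDS5AB-NIPBL. The differences in treatment change gave 1 to 2 for WAPL minus TIR1, 0 to 1 for WAPL-NIPBL minus TIR1, 0 to 2 for WAPL-NIPBL minus WAPL and 2 to 4 for PDS5AB minus WAPL. Of 162 such refits of called treatment changes 145 kept the call, as did 154 of 174 of called untreated differences and 187 of 216 of called differences between lines.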
